A study of Mus musculus with 22 samples.

Results

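The 8 genes described here encode the subunits of the transcription factor NF-kappaB and the proteins that hold it back or switch it on. They were taken by symbol from a NanoString table of 770 mouse genes, and earlier results of these data were known when they were chosen. They are Nfkb1, Nfkb2, Rel, Rela and Relb for the subunits, Nfkbia for the inhibitor, and Ikbkb and Chuk for the kinases. All 8 had a probe, and none was at 0 in any tumour.

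EMT-6, a BALB/c mammary carcinoma line, was grown as an orthotopic tumour in BALB/c hosts, and RNA was profiled from 22 tumours, 1 per mouse. The mice were randomised at a set tumour size (day 0), and tumours were taken on day 6. The isotype control group (4 mice) received 0 µg of both agents. The other groups received NHS-muIL12 alone at 2 µg (4 mice) or 10 µg (3 mice), avelumab alone at 200 µg (3 mice), or avelumab at 200 µg with NHS-muIL12 at 2 µg (4 mice) or 10 µg (4 mice). NHS-muIL12 is murine interleukin-12 fused to an antibody that binds DNA exposed in necrotic tissue, and it was given under the skin on day 0. Avelumab is an antibody against PD-L1 and was given into a vein on days 0, 3 and 6, so the last injection fell on the day of collection. The study's text speaks of 4 mice in every group, and the remaining mice are not analysed here. The model is 1 tumour line in 1 mouse strain, and the RNA is from whole tumours.

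NF-kappaB works as pairs of subunits that wait in the cytoplasm, bound by an inhibitor of the I-kappaB type. Signals from tumour necrosis factor, interleukin-1, Toll-like or antigen receptors switch on a kinase complex that marks the inhibitor for destruction, and the freed pair enters the nucleus. Most of this control acts on protein, so mRNA levels do not show how active the pathway is. Some pathway genes are themselves NF-kappaB targets, in particular Nfkbia, Nfkb2 and Rel, and their mRNA is part of a feedback loop. In tumours, NF-kappaB is active both in cancer cells and in the infiltrating macrophages, neutrophils and lymphocytes.

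The feedback loop has its binding sites in the promoters, and these are shown because they are the known kind of sequence through which NF-kappaB acts on its own genes. RefSeq promoters on build GRCm38.p6 were given for 5 of the 8 genes. The kappaB consensus was searched on both strands of the 250 bases upstream of the gene's start, overlapping matches were merged, and capitals mark the match in the sequence of the gene's strand, written 5′ to 3′. Rel, Nfkbia and Nfkb2 held it, while no match was found in these windows of Rela and Chuk, and 7.25% of 32851 promoters in the table held it.
Rel (chr11:23771042-23771070, minus strand): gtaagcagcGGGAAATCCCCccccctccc
Nfkbia (chr12:55492658-55492685, minus strand): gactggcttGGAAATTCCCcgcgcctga
Nfkb2, start 1 (chr19:46304689-46304717, plus strand): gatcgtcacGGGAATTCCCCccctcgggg
Nfkb2, start 1 (chr19:46304717-46304736, plus strand): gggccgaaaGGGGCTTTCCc
Nfkb2, start 2 (chr19:46305450-46305477, plus strand): ccgacggcaGGAATGTCCCcacaaaagc
Nfkb2, start 3 (chr19:46305696-46305723, plus strand): ggtattttcGGGACTTTCCtaagcagca
Nfkb2 has 3 annotated starts in the table, and each had at least 1 match. Promoters of Nfkb1, Relb and Ikbkb were not in the table used here.

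The values are NanoString signals on a linear scale, and each probe has its own efficiency, so levels were compared between tumours and not between genes. Total signal per tumour ranged from 300174 to 511105. In 4 libraries, isotype replicates 1 and 2, NHS-muIL12 2 µg replicate 3 and NHS-muIL12 10 µg replicate 3, the lower quartile of signal was 33.3 to 50.2, above all the others (as low as 3.06). Several results that rest on those libraries are therefore given with and without them. Low values lay on a ladder of even steps, from which 1 probe count was worth 0.664 to 1.68 signal units. The 8 genes then stood on 53.9 (Rel, lowest tumour) to 1033 (Chuk, highest tumour) counts above background, for a counting error of 13.6% to 3.11% of the value, which covers counting only. Of 6 epithelial markers listed for the tumour cells, 3 (Epcam, Cdh1 and Muc1) were on the panel, with a summed signal of 89.6 to 282 across the tumours. In bulk tissue, fewer cells of a type and less RNA per cell cannot be told apart.

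The mRNA levels of the 8 genes differed little between tumours. Between the highest and the lowest of the 22 tumours, the ratio of signal was 1.43 for Ikbkb, 1.5 for Nfkb2 and Rela, 1.58 for Chuk, 1.65 for Relb, 1.69 for Nfkb1, 2.21 for Rel and 2.83 for Nfkbia. The SD of log2 signal over all tumours was 0.134 to 0.365, while it was 0.407 in the median of the 450 tested genes whose mean signal reached 50. The plot of the 8 genes by tumour shows mostly overlapping groups.

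**Figure D1:**
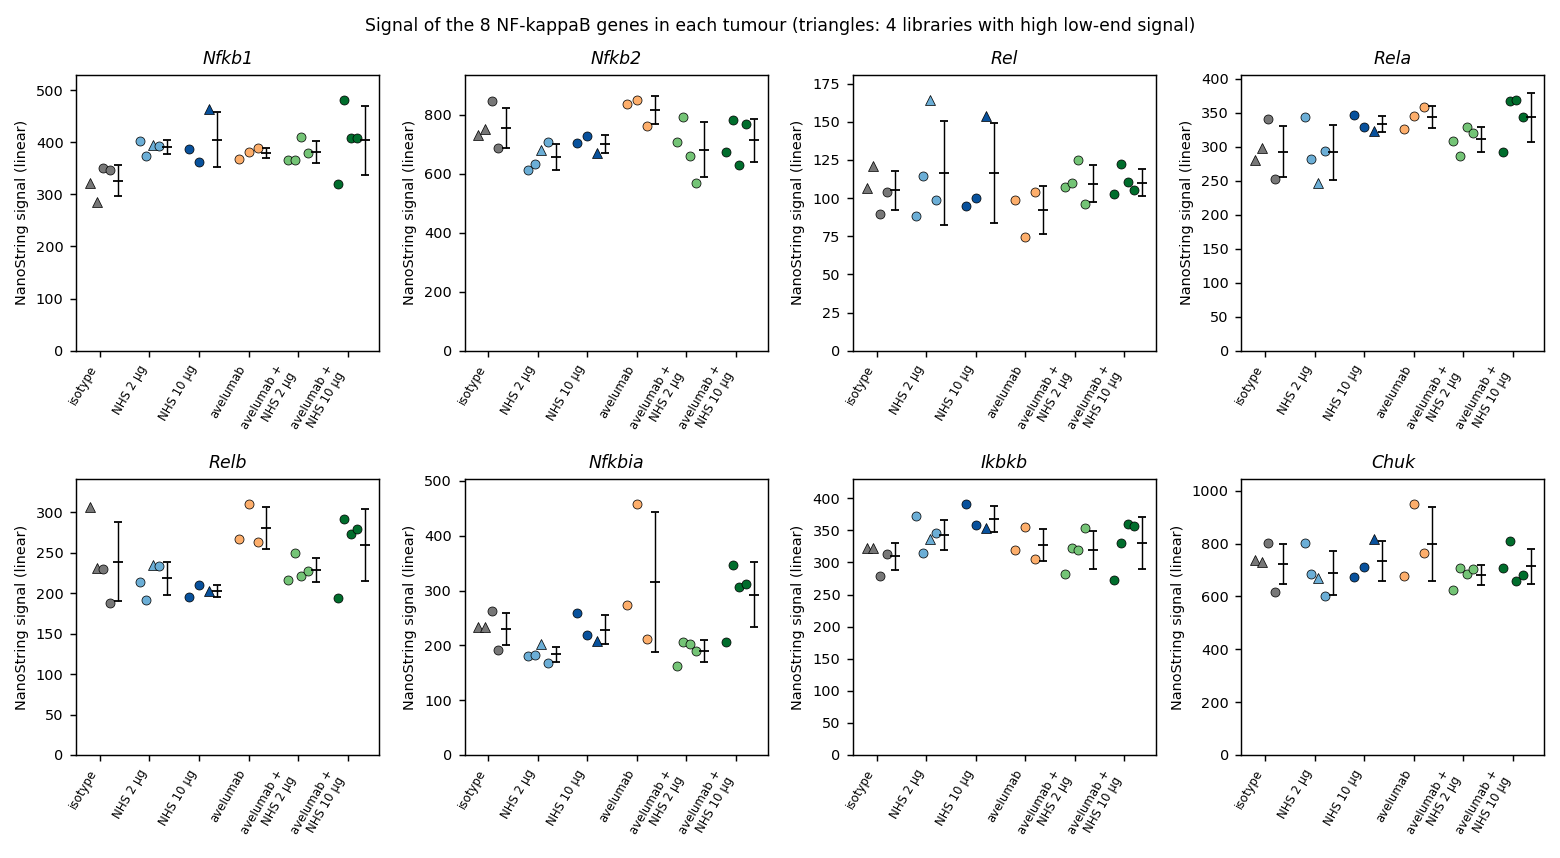
NanoString signal (linear scale, axis from 0) of the 8 NF-kappaB genes in each of the 22 tumours, by treatment group; each point is 1 tumour, the black marks beside them are the group mean ± SD, and triangles are the 4 libraries with high low-end signal. The mean of Nfkb1 is lowest in the isotype group, and that of Nfkbia is lowest in both groups given 2 µg of NHS-muIL12. Nfkbia has its highest value, 457.9, in 1 avelumab tumour.

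All 13 comparisons were fitted with limma on log2(signal + 1) over 750 genes (20 housekeeping genes left out), and a gene was called at a Benjamini-Hochberg adjusted p below 0.05. None of the 104 tests of the 8 genes passed, and 10 of them (9.62%) had an unadjusted p below 0.05. Among all tested genes that share ran from 2.53% (interaction) to 35.6% (any NHS-muIL12) over the 13 comparisons. In the comparison of the 15 mice given any NHS-muIL12 with the 7 given none, 0 of the 8 were called, where 22.7% of all tested genes were. There, the median size of the log2 change was 0.17 for the 8 genes and 0.29 for those 450 brighter genes. Against isotype, 0 of the 8 were called for 2 µg of NHS-muIL12 (0% of all tested genes), 10 µg of NHS-muIL12 (10.5%), avelumab (0%), avelumab with 2 µg (9.47%) and avelumab with 10 µg (19.7%). Against avelumab alone, 0 of the 8 were called on adding 2 µg (10.8%) or 10 µg (16.9%). Adding avelumab to 2 µg (0.267%) or to 10 µg (0%) of NHS-muIL12 also gave 0 of 8, as did the contrast of both doses (0%), of avelumab averaged over doses (0%) and of the interaction (0%). The 95% intervals below hold for the deposited scale only.

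Nfkb1 encodes p105, the precursor that is cut to the p50 subunit. Its signal in the isotype tumours was 322.7, 284.8, 350.7 and 347.4. It was 403.3, 373.0, 394.3 and 392.6 with 2 µg of NHS-muIL12 and 387.0, 362.7 and 464.1 with 10 µg. All 7 of these tumours lay above the isotype range. With avelumab the signal was 368.1, 382.1 and 388.1. With avelumab and 2 µg it was 365.8, 365.3, 410.4 and 379.9, and with avelumab and 10 µg it was 319.8, 481.7, 407.7 and 407.5. Thus 17 of the 18 treated tumours were above the highest isotype tumour, and replicate 1 of avelumab with 10 µg was not. Of the 750 genes, 6 (0.8%) had at least as many treated tumours above all isotype tumours. This position depends on the scaling: it held at 17 of 18 with each library centred on its housekeeping genes, and was 5 of 18 with centring on the library median and 6 of 18 after quantile normalization.

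The log2 difference of Nfkb1 from isotype was 0.26 ± 0.12 (SE) for 2 µg of NHS-muIL12, with an adjusted p of 0.559. It was 0.31 ± 0.13 for 10 µg (adjusted p 0.150) and 0.22 ± 0.13 for avelumab (adjusted p 0.715). For avelumab with 2 µg and with 10 µg it was 0.22 ± 0.12 (adjusted p 0.227) and 0.30 ± 0.12 (adjusted p 0.0878). These 5 comparisons share the 4 isotype mice, so they are not separate observations of a difference. Groups did not overlap in 4 of the 5, where the share of all tested genes with no overlap was 6% for 2 µg, 22.1% for 10 µg, 4.67% for avelumab and 17.1% for avelumab with 2 µg. Leaving out the 4 libraries, which include the 2 lowest isotype tumours, gave 0.10 to 0.20 for the 5 differences, with adjusted p of 0.45 or more. The 5 treated groups had means between 379 and 405, and each overlapped every other. Against all mice without NHS-muIL12, the difference for any NHS-muIL12 was 0.16 (95% interval -0.00 to 0.33), and 0.085 without the 4 libraries (95% interval -0.11 to 0.27). Its sign turned with centring on the library median (-0.14) and after quantile normalization (-0.17).

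Nfkb2 encodes p100, which is cut to p52 in the slower, non-canonical branch of the pathway. In the isotype tumours its signal was 732.5, 753.2, 845.4 and 687.6, and with avelumab alone it was 835.8, 851.1 and 761.4. With NHS-muIL12 it was 611.1, 632.7, 679.4 and 706.1 at 2 µg, and 703.2, 729.0 and 668.6 at 10 µg. With both agents it was 708.6, 790.9, 660.8 and 567.8 at 2 µg, and 673.7, 782.1, 631.1 and 767.1 at 10 µg. Most NHS-muIL12 tumours were in the lower part of the range, but the 15 with the agent and the 7 without overlapped. Signal with any NHS-muIL12 was 0.876 times that without (log2 difference -0.19 ± 0.07, 95% interval -0.35 to -0.04), with an unadjusted p of 0.0181 and an adjusted p of 0.0703. Without the 4 libraries the log2 difference was -0.20, and its 95% interval included 0 (-0.40 to 0.008, adjusted p 0.185). In the order of group means, from 657 ± 43.3 (SD) at 2 µg of NHS-muIL12 to 816 ± 48.0 with avelumab, each neighbouring pair overlapped. The median of all 750 genes in the same comparison was 0.07, and -0.23 with libraries centred on their median; under that scaling the Nfkb2 difference was -0.50 with an adjusted p of 0.033.

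Rel, Rela and Relb encode the subunits that carry a transactivation domain. Rel, the c-Rel protein of lymphoid and myeloid cells, ranged from 74.4 to 164.5 in signal. Group means were 92.3 ± 15.7 (SD, n = 3) with avelumab, 105.1 ± 12.9 (n = 4) in isotype tumours and 109.5 ± 11.9 (n = 4) with avelumab and 2 µg. They were 110.2 ± 8.79 (n = 4) with avelumab and 10 µg, 116.3 ± 32.7 (n = 3) with 10 µg and 116.5 ± 33.8 (n = 4) with 2 µg of NHS-muIL12 alone. The groups overlapped throughout. The highest values, 164.5 and 154.0, were in libraries with high low-end signal, NHS-muIL12 2 µg replicate 3 and 10 µg replicate 3. For any NHS-muIL12, the log2 difference of Rel was 0.19 (95% interval -0.07 to 0.45), and 0.15 (-0.07 to 0.37) without the 4 libraries.

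Rela encodes p65, the main activating subunit of the canonical pathway. Its signal ranged from 246.7 to 369.3, with group means between 292 ± 40.4 at 2 µg of NHS-muIL12 and 343.5 ± 16.3 (SD, n = 3) with avelumab. Its difference for any NHS-muIL12 was 0.01 (95% interval -0.15 to 0.17) on the deposited scale. Quantile normalization moved it to -0.29 with an adjusted p of 0.018.

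Relb encodes the partner of p52 in the non-canonical branch. Its signal in isotype tumours was 306.3, 231.3, 230.4 and 188.3. It was 213.9, 191.0, 235.1 and 233.3 with 2 µg of NHS-muIL12 and 195.2, 210.1 and 202.6 with 10 µg. With avelumab it was 266.4, 310.3 and 263.7. These avelumab tumours were above all tumours given NHS-muIL12 alone, and 1 isotype tumour lay within their range. The share of all genes that split avelumab alone from NHS-muIL12 alone was not computed. With both agents the signal was 216.0, 249.4, 221.6 and 227.7 at 2 µg, and 194.4, 292.1, 273.7 and 279.2 at 10 µg. Relb was below the avelumab range in all 4 tumours given avelumab with 2 µg, as was Nfkbia, in a comparison where 23.9% of all tested genes showed no overlap. Averaged over the doses of NHS-muIL12, the 11 mice with avelumab had 1.16 times the signal of the 11 without (log2 difference 0.22 ± 0.09, 95% interval 0.03 to 0.41), with an unadjusted p of 0.0251 and an adjusted p of 0.252. At 10 µg alone, adding avelumab gave a difference of 0.34 ± 0.16 (adjusted p 0.932), where 1 of the 4 tumours, at 194.4, lay below all 3 tumours without avelumab.

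Nfkbia encodes I-kappaB-alpha, the inhibitor that NF-kappaB itself induces within minutes, and it varied most of the 8. Signal in isotype tumours was 232.5, 233.6, 262.0 and 192.1. It was 180.4, 181.7, 203.0 and 168.6 with 2 µg of NHS-muIL12 and 161.8, 205.9, 202.3 and 189.5 with avelumab and 2 µg. The 8 tumours at 2 µg were thus all at the low end, whether or not avelumab was given. At 10 µg it was 259.5, 219.1 and 207.6 without avelumab, and 206.5, 345.8, 306.8 and 311.3 with it. With avelumab alone it was 274.3, 457.9 and 212.3. Replicate 3 had the highest Nfkbia of the series. All 3 avelumab tumours lay above the 8 tumours at 2 µg, but the share of all genes with that split was not computed. Between avelumab alone and avelumab with 2 µg, 23.9% of all tested genes showed no overlap. The nearest tumours, at 212.3 and 205.9, differed by less than the counting error of Nfkbia, which was 5.40% of the value or more.

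All 7 tumours at 10 µg (206.5 to 345.8) were above all 8 at 2 µg (161.8 to 205.9), which only 3 of 750 genes (0.4%) showed: Arg1 (arginase 1), Lgals3 (galectin-3) and Nfkbia. The gap between the nearest tumours was smaller than the counting error of either, and it closed when libraries were centred on their housekeeping genes, on their median or quantile-normalized. Nfkbia was 1.37 times as high at 10 µg as at 2 µg (log2 difference 0.46 ± 0.15, 95% interval 0.15 to 0.77), with an unadjusted p of 0.00614 and an adjusted p of 0.157. In this comparison 15.6% of all genes had an unadjusted p below 0.05 and none was called. Without the 4 libraries the difference was 0.52 (95% interval 0.13 to 0.90, adjusted p 0.32). In the plot of changes the interval of Nfkbia lies to the right of 0 for dose.

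The smallest adjusted p of any of the 8 genes, 0.0580, was that of Nfkbia for avelumab with 2 µg against avelumab alone, where the log2 difference was -0.66 ± 0.22 (95% interval -1.11 to -0.20). It passed the threshold in 6 of 18 alternative settings, over which it ranged from -1.08 to -0.35 with adjusted p of up to 0.372. Both of those last values came from leaving out avelumab replicate 3. Without avelumab, the difference of 2 µg from isotype was -0.32 ± 0.20 (95% interval -0.74 to 0.10, adjusted p 0.753). Whether the effect of NHS-muIL12 depends on avelumab was tested by the interaction, which averages over both doses and for Nfkbia was -0.19 ± 0.26 (95% interval -0.74 to 0.36). Over its 32 alternatives it ranged from -0.49 to 0.11, and it was 0.11 without avelumab replicate 3. The smallest adjusted p over all 750 genes for that interaction was 0.996, with 19 genes (2.53%) at an unadjusted p below 0.05.

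**Figure D2:**
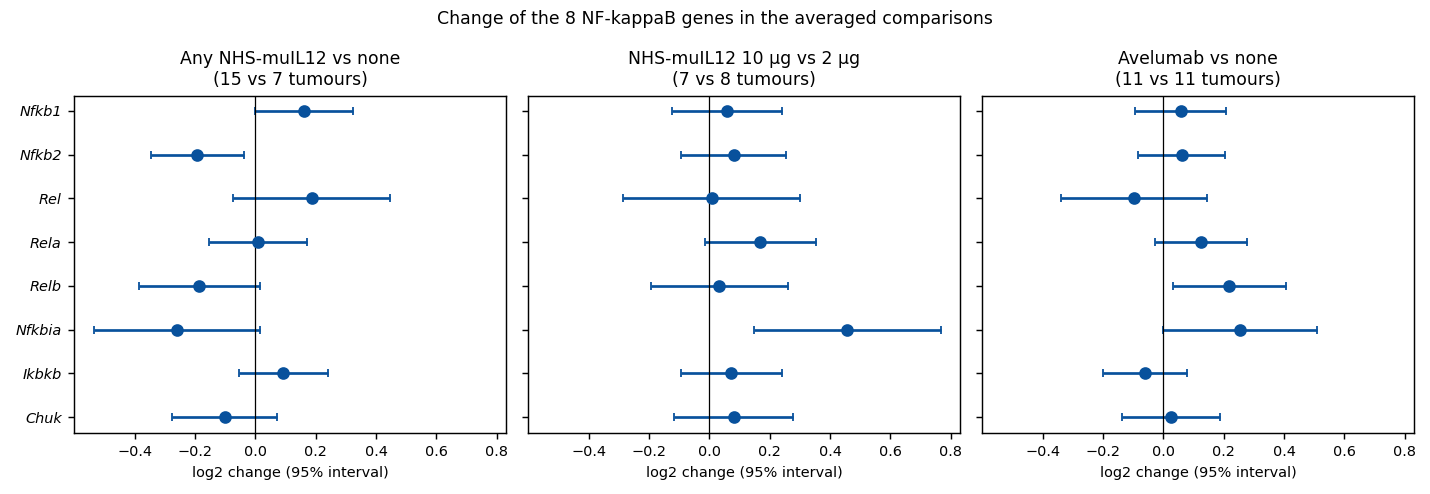
Log2 change of the 8 NF-kappaB genes with 95% intervals from limma (horizontal axis) in the comparisons averaged over several groups; points are the estimates and the vertical line marks 0. The interval of Nfkb2 lies below 0 for any NHS-muIL12 (-0.35 to -0.04), that of Nfkbia above 0 for 10 µg against 2 µg (0.15 to 0.77) and that of Relb above 0 for avelumab (0.03 to 0.41), and none of the 3 passed after adjustment. In these comparisons 35.6%, 15.6% and 17.1% of all tested genes had an unadjusted p below 0.05. Without the 4 libraries with high low-end signal, the Nfkb2 interval was -0.40 to 0.008.

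Ikbkb and Chuk encode IKK-beta and IKK-alpha, the kinases that release the canonical and the non-canonical branch. Ikbkb was 322.7, 323.1, 279.0 and 312.4 in isotype tumours and 391.2, 357.7 and 353.4 with 10 µg of NHS-muIL12. These groups did not overlap, as was true of 22.1% of all tested genes. The log2 difference was 0.25 ± 0.12 (95% interval 0.00 to 0.49), with an adjusted p of 0.215. Without the 4 libraries it was 0.34 (95% interval -0.02 to 0.70, adjusted p 0.350). Over all libraries it was -0.0048 with centring on the library median and -0.15 after quantile normalization. At 2 µg the signal was 372.1, 315.2, 336.6 and 346.4, which overlapped the isotype tumours. With avelumab, alone or combined, it was 273.3 to 360.4, a range that covered that of the isotype group. Chuk ranged from 602.3 to 950.4, with the highest value in avelumab replicate 3, the tumour that was also highest for Nfkbia. The intervals for any NHS-muIL12 were -0.06 to 0.24 for Ikbkb and -0.28 to 0.07 for Chuk.

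Other genes of the pathway were read from lists by role, as counts among the genes on the panel in the comparison of any NHS-muIL12 with none, where 20.7% of all tested genes rose and 2% fell. The lists were chosen with results of these data known. Of 20 measured kinases and adaptors, 2 rose and none fell. These were Irak4 (0.28 ± 0.08), a kinase of the Toll-like and interleukin-1 receptors, and Ticam2 (1.72 ± 0.50), an adaptor of Tlr4. The list's median was 0.05 against 0.07 for all genes. The Irak4 direction turned to -0.023 with centring on the library median and -0.055 after quantile normalization, and both calls were lost without the 4 libraries (adjusted p 0.0927 and 0.0778). Avelumab replicate 3 was at 0 for Ticam2. Without it both calls were lost, and without avelumab replicate 2 that of Irak4.

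Of 5 measured inhibitors and feedback genes, 1 fell and none rose. Tnfaip3, which encodes the ubiquitin-editing brake A20 and is induced by NF-kappaB, was 257.1, 391.7, 362.8 and 267.5 in isotype tumours and 323.7, 584.9 and 273.1 with avelumab. In the 15 tumours given NHS-muIL12 it was 206.6 to 342.6. The groups overlapped, and the log2 change was -0.39 ± 0.14 with an adjusted p of 0.0494. The call was lost in 18 of 32 alternative settings, which include 16 of the 22 that leave out 1 tumour and that without the 4 libraries (adjusted p 0.14). The median of the 5 was -0.07.

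Of 31 receptors that signal to NF-kappaB, 4 rose and none fell, all of them Toll-like receptors. They were Tlr8 (1.26 ± 0.25) and Tlr9 (0.92 ± 0.32), which sense nucleic acids in endosomes, Tlr4 (0.65 ± 0.16), which senses lipopolysaccharide, and Tlr1 (0.96 ± 0.28), a partner of Tlr2. Tlr8 was called in all 32 alternatives, while the Tlr4 and Tlr1 calls were lost without the 4 libraries (adjusted p 0.0861 and 0.0946) and the Tlr9 call was lost in 15 of 31 alternatives. With centring on the library median the Tlr4 call was lost as well (0.34, adjusted p 0.0855). The Tlr1 call was also lost without avelumab replicate 3. The list's median was 0.18. Markers of macrophages, which carry these receptors, moved in the same comparison: 4 of 7 measured macrophage markers rose and none fell, and their summed signal was 1528 to 4048 without NHS-muIL12 and 3307 to 8119 with it. Ptprc, the pan-leukocyte marker CD45, rose too: its signal was 115.1 to 259.98 in tumours without the agent and 206.9 to 716.9 with it. Their part in the receptor changes was not tested.

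Of 17 ligands of those receptors, 2 rose and none fell: Il18 (0.50 ± 0.12), a cytokine of macrophages that acts with interleukin-12 on lymphocytes, and Ltb (1.69 ± 0.53), the membrane subunit of lymphotoxin. The Il18 call was lost with centring on the library median (0.19, adjusted p 0.280) and after quantile normalization (0.20, adjusted p 0.117). The Ltb call was lost without avelumab replicate 2 or 4. The classical inducers Tnf and Il1b were not called, with 0.25 ± 0.26 (adjusted p 0.541) and -0.25 ± 0.27 (adjusted p 0.534). They were named after their values were seen.

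Target genes of NF-kappaB were listed apart by whether interferon-gamma induces them too, and the difference between the lists was not tested. The mean signal reached 50 for 10 of the 10 shared targets and for 15 of the 28 others. Of these 28 measured targets outside the interferon overlap, 4 rose and 1 fell, and their median was -0.05. The chemokines Ccl2 (0.66 ± 0.20) and Ccl7 (0.77 ± 0.25), which draw monocytes, rose, as did Cxcl13 (3.23 ± 0.94), which draws B cells, and the adhesion gene Vcam1 (0.23 ± 0.08). Vcam1 had an adjusted p of 0.0472, near the threshold, and its call was not followed over the alternatives. The fold of Cxcl13 rests on values near 0, since it was listed at 0 in 5 of the 7 tumours without NHS-muIL12. The Ccl2 and Ccl7 calls were lost without the 4 libraries (adjusted p 0.11 and 0.15), and the Cxcl13 call without avelumab replicate 3. Leaving out isotype replicate 1 or 2 or avelumab replicate 2 or 3 also ended the calls of Ccl2 and Ccl7, as did centring on the library median (0.36 and 0.46) and quantile normalization (0.31 and 0.49). Mmp9, the secreted gelatinase of neutrophils and macrophages, fell (-1.41 ± 0.37): its signal was 320.8 to 1605 in the 7 tumours without NHS-muIL12 and 75.4 to 644 in the 15 with it.

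Of 10 measured targets that interferon-gamma also induces, 9 rose, and their median was 1.06. Examples are Cfb (1.75 ± 0.29), a complement factor, the chemokine gene Cxcl10 (1.36 ± 0.23), Tap1 (0.72 ± 0.14), the peptide transporter of antigen presentation, and the immunoproteasome gene Psmb9 (0.66 ± 0.12). The exception, Nos2, had 0.70 ± 0.29 with an adjusted p of 0.09. All 5 measured interferon-gamma reference genes, which do not serve as NF-kappaB readouts here, rose with a median of 1.71, led by the chemokine gene Cxcl9 (3.02 ± 0.35). Cxcl9, Gbp5, Ciita, Cfb, Cxcl10 and Tap1 kept their call in all alternatives run. The plot of changes by list shows every gene.

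**Figure D3:**
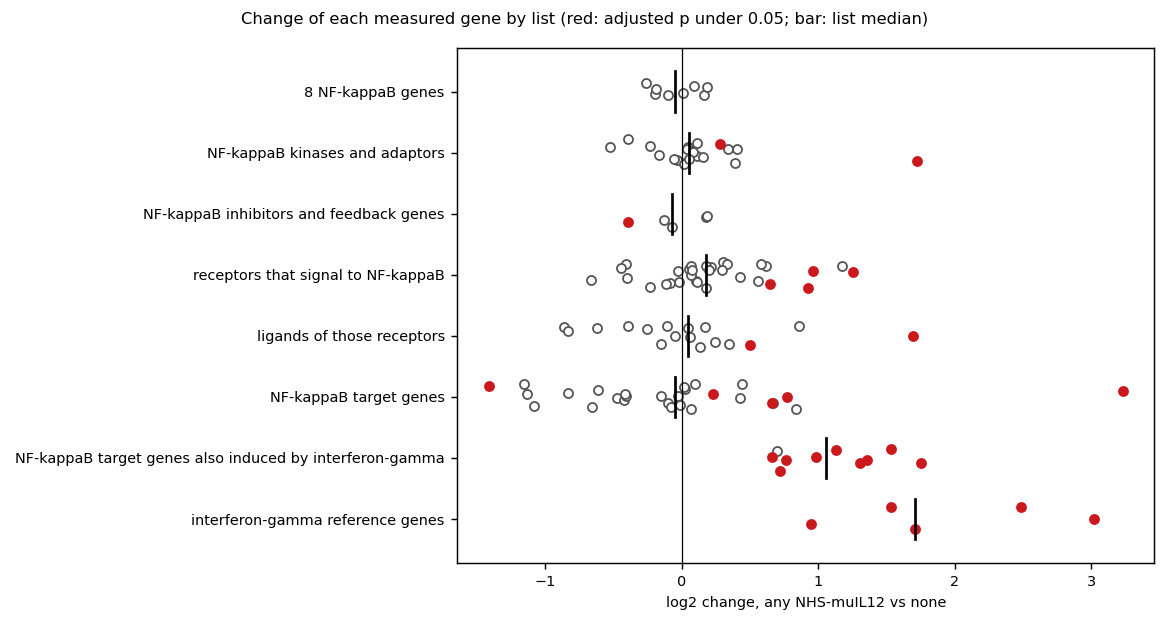
Log2 change with any NHS-muIL12 against none (horizontal axis) for each measured gene of the lists; red points passed an adjusted p below 0.05, open points did not, and vertical bars are list medians. The 8 NF-kappaB genes lie between -0.26 and 0.19 with no call, while the medians of the targets also induced by interferon-gamma and of the interferon-gamma reference genes are 1.06 and 1.71.

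The 8 genes varied together only in part across the 22 tumours. Of 28 pairs, 1 passed a permutation test of Pearson's r after Benjamini-Hochberg adjustment, Relb with Nfkbia (r = 0.68, adjusted p 0.0123, and Spearman's rho = 0.60, adjusted p 0.0487). Without the 2 tumours farthest from the median of Relb, r was 0.64, without the 4 libraries 0.74, and for deviations from group means 0.60. By Spearman's rho, Nfkb2 with Relb, Nfkb2 with Nfkbia and Rela with Nfkbia passed as well, each with an adjusted p of 0.0487. The number of pairs that passed depended on the scaling, since centring libraries on their median or quantile normalization gave 23 of 28.

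For each gene, likeness was taken as the highest Pearson r with 442 other tested genes of mean signal at least 50 over the 22 tumours, as a description. All values share the libraries. Nfkbia was most like the chemokine genes Ccl3 (r = 0.84, rho = 0.82) and Cxcl3 (r = 0.84, rho = 0.79), which are NF-kappaB targets of macrophages and neutrophils. Without the 2 tumours farthest from the median of each, r was 0.80 and 0.78. Without the 4 libraries it was 0.94 and 0.87. In avelumab replicate 3, the tumour highest for Nfkbia, Ccl3 was 457.9 and Cxcl3 was 246.9, the highest values of both. Next to these, Relb was most like Itga5 (0.78), an integrin gene, Chuk like Ptgs2 (0.77), which encodes the inducible cyclooxygenase, and Nfkb2 like Ewsr1 (0.73). Rel was most like Tlr7 and Trem1 (both 0.72, and 0.70 and 0.44 without the 4 libraries), receptors of myeloid cells, and Rela like Hif1a (0.72) and Stat3 (0.69). Values for Nfkb1 (Jak1, 0.64) and Ikbkb (Pik3cd, 0.62) were lower.

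The summed signal of 4 measured neutrophil markers (S100a8, Csf3r, Cxcr2 and Mpo) moved with Nfkbia over the tumours. Its lowest group was avelumab with 2 µg, at 439 to 757, and its highest tumour was avelumab replicate 3 at 2429. Pearson's r with Nfkbia was 0.69, with a permutation p adjusted over 80 pairs of genes and cell types of 0.0312, while Spearman's rho was 0.65 with an adjusted p of 0.0896. It fell to 0.52 without the 2 tumours farthest from the median, and was 0.80 without the 4 libraries and 0.75 for deviations from group means. None of the 4 markers passed in the comparison of any NHS-muIL12 with none. Rel moved with the dendritic cell markers (r = 0.66, adjusted p 0.0348, and Spearman's rho = 0.63, adjusted p 0.0896), but with r = 0.43 without the 4 libraries. This was not particular to dendritic cells: r of Rel was 0.55 with NK cell, 0.53 with T cell and 0.51 with epithelial markers. Those did not pass (permutation test, adjusted p 0.132, 0.132 and 0.138), and without the 4 libraries they were 0.30, 0.22 and -0.0032. The part of these cells in the levels of the 8 genes was not tested.

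**Figure D4:**
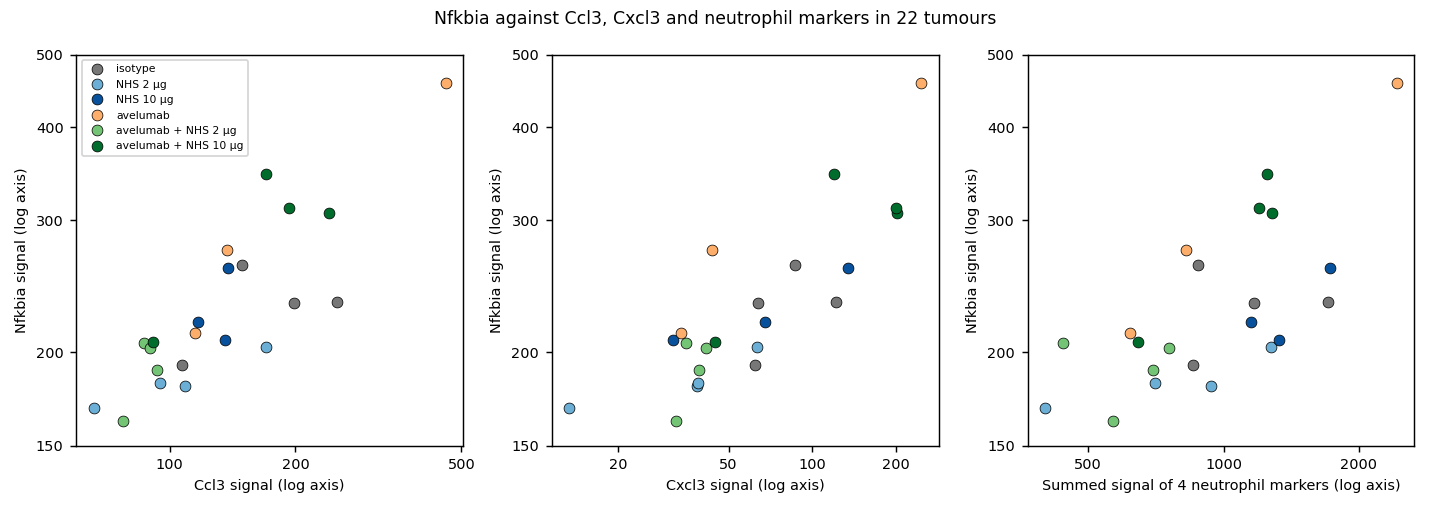
Signal of Nfkbia (vertical axis) against that of Ccl3, of Cxcl3 and the summed signal of 4 neutrophil markers (horizontal axes) in the 22 tumours, 1 point per tumour, coloured by treatment group. All axes are logarithmic. Avelumab replicate 3 is at the upper right in every panel (Nfkbia 457.9), and the 8 tumours at 2 µg of NHS-muIL12 lie between 161.8 and 205.9 on the vertical axis.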

How the data were processed

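Total RNA of 22 EMT-6 tumours was hybridised to NanoString probes by a standard protocol, per the labels. The authors deposited 1 signal value per gene and tumour on a linear scale. The values were not whole numbers and 9.44% were 0, and how background and scaling were handled is not given in the sources used here. Groups followed the sample labels, and each tumour is 1 mouse.

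log2(signal + 1) was fitted by limma 3.58.1 in R 4.3.3 (a linear model, contrasts and empirical Bayes moderation) with 6 group means and 16 residual degrees of freedom, two-sided, with Benjamini-Hochberg adjustment over 750 genes in each of 13 comparisons. The 20 housekeeping genes stayed out of the tests. The script was tested on simulated data. Pearson and Spearman p-values came from 100000 permutations. The 8 genes and all lists were chosen with earlier results of these data known. Genes named from a list are the up to 4 with the smallest p among those called for any NHS-muIL12, and any named beyond these were chosen after their values were seen. The correlations with cell type markers were added after the data were seen.

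Alternatives were pseudocounts of 8 and 32, a minimum mean signal of 50, 3 other scalings, sample weights, a moderated trend, a replicate block, the compared groups alone, and leaving out tumours or the 4 libraries with high low-end signal. Of 770 gene names, 754 matched a current RefSeq symbol and 8 an older one. No 2 libraries were duplicates (highest r 0.977).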

Additional observations from a re-analysis of the deposited data

How the results depend on the processing

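Of 2304 recomputed changes of the 8 genes, 2100 kept their direction and side of the threshold, 170 changed sign without a call, 32 passed the threshold and 2 reversed with a call. Both were after quantile normalization: Rela for any NHS-muIL12 (-0.29) and Ikbkb for avelumab with 10 µg against avelumab (-0.44). Irak4 reversed to -0.023 with median centring and -0.055 with quantile normalization.

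The count of the 8 genes called, 0 as deposited, moved as follows. For any NHS-muIL12 it was 1 with a pseudocount of 32, 1 with a minimum mean signal of 50, 4 with median centring, 5 with quantile normalization, 2 with sample weights, and 0 to 1 when 1 tumour was left out (Nfkbia without avelumab replicate 4, Nfkb2 without replicate 2 of avelumab with 2 µg). Over all alternatives, calls among all tested genes numbered 135 to 310, with 310 under sample weights and 170 as deposited. They numbered 136 to 181 when 1 tumour was left out. For avelumab with 2 µg against avelumab it was 1 with a minimum mean signal of 50 or a trended robust prior, 2 with median centring, quantile normalization or sample weights, and 0 to 1 on leaving out 1 tumour (avelumab replicate 4). All tested genes called there numbered 97 of 450 with the minimum mean signal, 95 with the trended prior and 59 with median centring. They numbered 76 with quantile normalization, 217 with sample weights and 95 without avelumab replicate 4, against 81 as deposited. For avelumab with 10 µg it was 2 against isotype with quantile normalization, 1 with sample weights and 0 to 1 on leaving out 1 tumour (Nfkb1 without replicate 1), and 4 against avelumab with quantile normalization. Sample weights called 269 of all tested genes against isotype (148 as deposited). Over all alternatives, calls of that comparison numbered 0 to 269, and on leaving out 1 tumour 63 to 227. Quantile normalization called 125 against avelumab (127 as deposited). For 10 µg against isotype it was 1 with quantile normalization, and for 10 µg against 2 µg it was 1, Nfkbia, with sample weights. Sample weights called 20 of all tested genes for that dose comparison, and 0 were called as deposited. Over the alternatives, 10 µg against isotype gave 0 to 255 calls among all tested genes (79 as deposited). Correlated pairs numbered 23 of 28 with median centring and with quantile normalization, against 1. These scalings move the median of all genes for any NHS-muIL12 from 0.07 to -0.23 and -0.12; the cause of the shift was not tested.

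The labels do not say that a replicate number pairs mice. Correlations of deviations from group means showed no sign of it (50 same-number pairs, median r -0.04, 15 above 0.1, and 151 other pairs, median r -0.01). The replicate block left 0 of the 8 genes called in all 13 comparisons. With it, 164 genes were called for any NHS-muIL12 against 170 (Ltb and Tlr9 were not called with the block). Among all genes, leaving out the 4 libraries ended every call against isotype (79, 71 and 148 to 0 each) and left 135 for any NHS-muIL12, while sample weights gave 310. Groups of 3 or 4 mice and counting error of up to 13.6% limit what these data can resolve.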

Other observations

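List medians differed between the doses of NHS-muIL12, without a call. At 10 µg against 2 µg, the 10 targets shared with interferon-gamma had a median log2 difference of 0.76 (range 0.36 to 1.12) and the 5 interferon-gamma reference genes one of 0.66, against 0.14 for all 750 genes. The 28 other NF-kappaB targets had a median of 0.37 (range -0.70 to 1.33), with Cxcl3 at the upper end (1.33 ± 0.46, adjusted p 0.157), named after its value was seen. The 20 kinases and adaptors (0.12), 31 receptors (0.11) and 17 ligands (0.12) were near the median of all genes. None of these genes passed the threshold for dose.

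Adding 10 µg of NHS-muIL12 to avelumab raised 9 of the 10 shared targets and 4 of the 5 reference genes, and Ccl2 and Ccl7 among the other 28 targets, where 16.9% of all tested genes were called. Adding 2 µg, where 10.8% of all tested genes were called, raised 5 of 10 and 3 of 5 and none of the other 28 targets, and Tnfaip3 was the only one of 5 inhibitors and feedback genes to fall. All calls of both comparisons (127 for 10 µg, 81 for 2 µg) were lost when only the compared groups were fitted. For 2 µg they were also all lost without avelumab replicate 2 or 3 or without replicate 1 or 4 of avelumab with 2 µg. For 10 µg they numbered 52 without avelumab replicate 2, 63 without avelumab replicate 3, 61 without replicate 3 of avelumab with 10 µg, and 58 with centring on the library median. Whether the doses differ in these counts was not tested beyond the dose comparison above.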
